A study of Mus musculus with 6 samples.

Results

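The MHC class I genes described here were 10 rows of the deposited expression table, out of 54532 genes in all, chosen because their gene name was one of 10 symbols. They comprised 8 heavy chains (H2-K1, H2-D1, H2-Q4, H2-Q6, H2-Q7, H2-T22, H2-T23 and H2-M3), the light chain B2m and the regulator Nlrc5. The data were RNA-seq libraries of hippocampal tissue, 3 from knock-in mice, called TG, and 3 from their wild-type littermates, called WT. The TG mice carried the G82R and L85P changes in exon 3 of Slc1a2, the gene of the glial glutamate transporter GLT-1, made with CRISPR/Cas9 on a C57BL/6N background, and founders were bred with C57BL/6 mice to give heterozygous offspring. The comparison asks how the epilepsy-associated changes in GLT-1 alter the hippocampal transcriptome, and each library was labelled as 1 replicate of its genotype. No agent is named for either group. The change is in the germline and not limited to a cell type, and whether each library was 1 animal or a pool, as well as the age, sex and zygosity of the sequenced mice, was not given in the sources used here. Values are FPKM, which correct the reads of a gene for its length and for the size of the library.

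MHC class I molecules present peptides from inside the cell to CD8 T cells and are bound by receptors of natural killer cells. Each consists of a polymorphic or conserved heavy chain, the invariant light chain beta-2-microglobulin and a short peptide, which is cut by the proteasome and pumped into the endoplasmic reticulum by the TAP transporter. In the healthy brain class I expression is low, neurons included, and interferons raise it. Nlrc5 is the class I transactivator: it has no DNA-binding domain of its own and acts with factors that are bound to the conserved SXY module of class I promoters, upstream of which lie a kappa B site and an interferon-stimulated element.

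The promoters of the members are shown first because these elements are where Nlrc5, NF-kappa B and interferon factors are known to act. RefSeq windows (GRCm38.p6) matched 9 of the 10 members by symbol. Each line below gives the 200 bases before the start site in the direction of transcription, with exact matches on either strand in capitals, for GGGATTCCC (the kappa B site), GTTTCACTT (the interferon-stimulated element), TGACG (the core of the X2 box) and ATTGG (the Y box, read as CCAAT on the other strand). The windows shown are a classical heavy chain with all 4 elements, a pair of neighbouring Qa genes that differ in 1 element, 2 non-classical heavy chains with lower fold changes and the light chain. Their coordinates are chr17:34000348-34000547 on the minus strand for H2-K1, chr17:35424650-35424849 on the plus strand for H2-Q6, chr17:35438955-35439154 on the plus strand for H2-Q7, chr17:36042743-36042942 on the minus strand for H2-T22, chr17:37270034-37270233 on the plus strand for H2-M3 and chr2:122147487-122147686 on the plus strand for B2m.
H2-K1: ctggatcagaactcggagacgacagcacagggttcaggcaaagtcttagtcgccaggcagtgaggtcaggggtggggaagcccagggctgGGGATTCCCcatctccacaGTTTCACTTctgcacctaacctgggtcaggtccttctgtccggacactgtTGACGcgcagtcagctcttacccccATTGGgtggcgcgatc
H2-Q6: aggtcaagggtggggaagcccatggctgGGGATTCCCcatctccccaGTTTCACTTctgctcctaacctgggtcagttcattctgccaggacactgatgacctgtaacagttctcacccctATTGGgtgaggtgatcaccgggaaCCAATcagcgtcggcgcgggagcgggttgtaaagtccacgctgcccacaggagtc
H2-Q7: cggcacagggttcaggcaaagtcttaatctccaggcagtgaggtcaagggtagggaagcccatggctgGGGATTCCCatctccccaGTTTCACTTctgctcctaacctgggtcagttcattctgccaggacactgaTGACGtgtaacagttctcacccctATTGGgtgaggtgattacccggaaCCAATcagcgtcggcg
H2-T22: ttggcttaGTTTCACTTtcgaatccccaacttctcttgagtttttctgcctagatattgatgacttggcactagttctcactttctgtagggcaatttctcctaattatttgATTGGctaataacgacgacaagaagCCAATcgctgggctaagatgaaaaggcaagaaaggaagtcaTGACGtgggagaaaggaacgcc
H2-M3: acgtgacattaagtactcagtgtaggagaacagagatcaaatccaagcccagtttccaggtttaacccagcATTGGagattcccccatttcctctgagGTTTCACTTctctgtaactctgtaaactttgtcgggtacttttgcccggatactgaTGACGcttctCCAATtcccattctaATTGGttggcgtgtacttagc
B2m: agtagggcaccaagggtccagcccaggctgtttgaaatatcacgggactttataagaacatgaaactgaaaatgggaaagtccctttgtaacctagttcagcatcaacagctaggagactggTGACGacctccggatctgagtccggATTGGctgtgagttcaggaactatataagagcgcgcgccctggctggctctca

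In the H2-K1 window the kappa B, interferon, X2 and Y matches began at -110, -91, -41 and -16 from the start site, in the order of the textbook class I promoter. H2-Q7 held the same order at -132, -114, -64 and -40, with another Y match at -16. In H2-Q6 the kappa B and interferon matches lay at -172 and -153, and no TGACG was found in the window, which says only that these letters were not there. H2-M3 had no kappa B match, an interferon match at -102 and an X2 match at -46. The B2m window held an X2 match at -78 and a Y match at -53. The exact letters searched for the longer elements were not found there, and variant forms of them were not searched.

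Over the 250 bases before the start site, on both strands, the kappa B letters were found in 4 of the 9 genes (H2-K1, H2-D1, H2-Q6 and H2-Q7), and in 0.301% of all 32851 promoter windows. Interferon-element letters were present in 7 of the 9 genes, that is in every heavy chain but H2-T23, against 0.338% of all windows. The start site used for H2-T23 lay 154 bases inside the gene as annotated with the deposited values, and that of H2-D1 364 bases inside. Less sequence before the annotated gene start was therefore searched for these genes. The missing match in H2-T23 holds for this window only. The letters of the short X2 core occurred in 7 genes and in 17.8% of all windows, and the Y box in all 9 genes and in 33.9% of all windows. In H2-T22 the TGACG match was at -22, nearer the start site than its Y matches at -201, -88 and -63. In H2-Q4 it was at -73, just after a Y match at -79. These matches were thus not in the order seen in H2-K1. No match overlapped another. All 4 elements stood together in 3 genes (H2-K1, H2-D1 and H2-Q7) and in 0.012% of all windows, which was 4 windows, all of these genes, since H2-K1 has 2 annotated start sites. The letters searched are those known from class I promoters, so these shares describe the windows and are not evidence of binding.

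**Figure D1:**
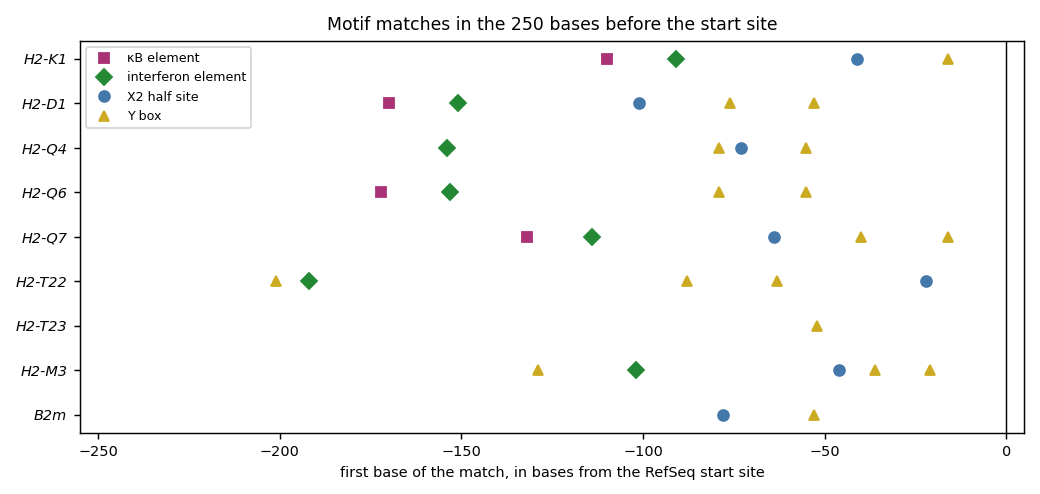
Positions of the 4 elements in the promoter windows of the 9 members with a window, as the distance of the first base from the start site in bases (x axis), 1 row per gene (1 of the 2 windows of H2-K1 is drawn); each symbol is 1 match. H2-K1, H2-D1 and H2-Q7 carry all 4 elements, and every row has a Y box.

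The libraries held 16081281 to 18751057 reads on genes, and 3 reads on a gene of 1 kb corresponded to 0.160 to 0.190 FPKM. Of all genes, 20952 had a mean of at least 0.1 FPKM and were tested with limma on log2(FPKM + 0.1), and all 10 members were among them. Slc1a2 itself was 202, 199.5 and 177 FPKM in WT1, WT2 and WT3 against 222, 207 and 217 FPKM in TG1, TG2 and TG3. FPKM of the whole gene do not show the coding changes. Markers of hippocampal neurons (10 of 10 tested) summed to 650 to 728 FPKM in WT and 627 to 683 FPKM in TG mice, so neuronal markers of the labelled tissue were present. Xist was at most 0.0181 FPKM beside 10.6 to 12.3 FPKM of the Y-linked gene Ddx3y in all 6 libraries. TG1 and TG2 stood apart by genes of the choroid plexus, the epithelium in the ventricles that makes cerebrospinal fluid: the 12 markers of this list summed to 58.1 to 83.0 FPKM in WT mice, 1218 FPKM in TG1, 3852 FPKM in TG2 and 66.5 FPKM in TG3, with no marker at 0. Each member is therefore also given with both of these libraries left out.

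On average all 10 members were higher in TG mice. Their log2 fold changes ran between 0.23 and 1.42 with a median of 1.04, where the median of all genes tested was -0.002 and 2.78% of all genes tested had a larger fold change than the median member. At an unadjusted p under 0.05, 6 of the 10 members were higher in TG mice, whereas 3.13% of all genes tested were. None of the 10 was lower at that threshold, against 2.78% of all genes. In 6 members (H2-K1, H2-D1, H2-Q4, H2-Q6, H2-Q7 and Nlrc5) the lowest TG library lay above the highest WT library, which held for 6.35% of all genes, and in the other 4 the groups overlapped. No member passed an adjusted p of 0.05 (Benjamini-Hochberg over all genes tested, limma), where 0.00955% of all genes did, and the adjusted p of the members lay between 0.768 and 0.789. In bulk tissue a larger number of cells of a type and more RNA per cell cannot be told apart.

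**Figure D2:**
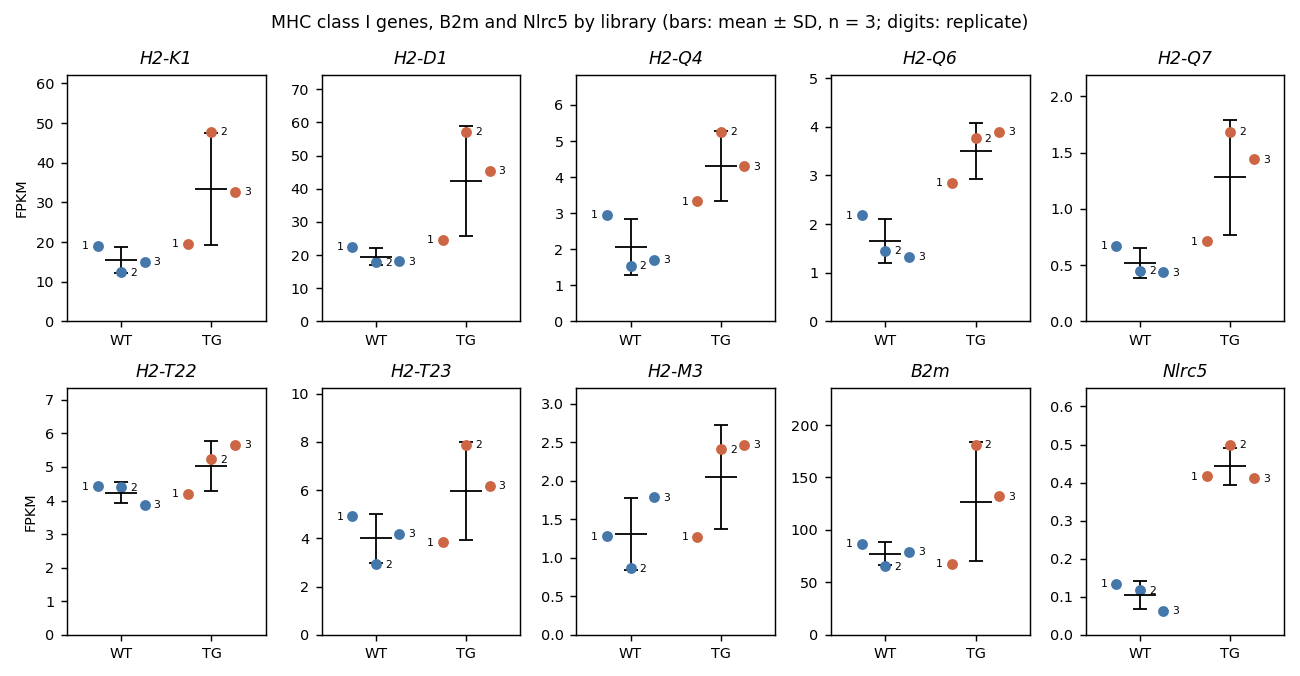
FPKM (y axis, starting at 0, a separate scale in each panel) of the 10 members in the 3 WT and 3 TG libraries; points are libraries with their replicate number, bars are the mean ± SD (n = 3). TG1 lies close to the WT libraries for most heavy chains and B2m, whereas all 3 TG libraries of Nlrc5 lie above 0.4 FPKM and all 3 WT libraries below 0.15 FPKM.

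Nlrc5 (ENSMUSG00000074151, chromosome 8, 94434356 to 94527272, plus strand, GRCm38), the regulator of the group, was 0.134, 0.117 and 0.0629 FPKM in WT1, WT2 and WT3 against 0.417, 0.499 and 0.411 FPKM in TG1, TG2 and TG3. The means were 0.104 ± 0.0370 in WT and 0.442 ± 0.0494 FPKM in TG mice (SD, n = 3), a ratio of 4.23, and the lowest TG library was 3.07 times the highest WT library. These values rested on 21, 16 and 10 reads in WT1, WT2 and WT3 against 56, 76 and 63 reads in TG1, TG2 and TG3. All 3 TG libraries were high, including TG3 with its low choroid plexus markers and TG1, in which most other members were near the level of WT1. On the log2(FPKM + 0.1) scale the difference was 1.42 (SE 0.315, 95% interval 0.68 to 2.16, unadjusted p = 0.00252, adjusted p = 0.786 in limma). At this low level the fitted value followed the pseudocount, from 0.38 with a pseudocount of 1 to 2.04 with 0.01, and it was 2.12 in limma-voom on the recovered reads. With the filter at a mean of 1 FPKM, Nlrc5 and H2-Q7 were not tested.

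The classical heavy chains H2-K1 and H2-D1, which present peptides to CD8 T cells, were the most abundant heavy chains among the members. H2-K1 (ENSMUSG00000061232, chromosome 17, 33996017 to 34000333, minus strand) was 19.1, 12.4 and 15.1 FPKM in WT1, WT2 and WT3 against 19.6, 47.9 and 32.8 FPKM in TG1, TG2 and TG3. H2-D1 (ENSMUSG00000073411, chromosome 17, 35262730 to 35267499, plus strand) was 22.5, 17.8 and 18.2 FPKM in the WT libraries and 24.6, 57.3 and 45.4 FPKM in the TG libraries. In both genes TG2 was the highest and TG3 the next, and TG1 lay just above WT1, by 1.03 times in H2-K1 and 1.09 times in H2-D1. The mean of H2-K1 went from 15.5 ± 3.38 in WT to 33.4 ± 14.2 FPKM in TG mice, and that of H2-D1 from 19.5 ± 2.61 to 42.4 ± 16.5 FPKM (SD, n = 3). The log2 fold change was 1.03 for H2-K1 (SE 0.312, 95% interval 0.30 to 1.76, unadjusted p = 0.0123) and 1.04 for H2-D1 (SE 0.286, 95% interval 0.37 to 1.71, unadjusted p = 0.00779), each with an adjusted p of 0.786 in limma. The 2 genes kept a similar proportion in every library: the ratio of H2-K1 to H2-D1 in FPKM was 0.694 to 0.847 in WT and 0.722 to 0.836 in TG mice. Across the 6 libraries their log2 values had a Pearson r of 0.986, as a description of libraries that share their depth and tissue composition.

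The Qa genes H2-Q4, H2-Q6 and H2-Q7 encode non-classical heavy chains, of which H2-Q7 gives rise to Qa-2. H2-Q4 (ENSMUSG00000035929, chromosome 17, 35379617 to 35385290, plus strand) was 2.96, 1.55 and 1.71 FPKM in WT1, WT2 and WT3 against 3.33, 5.26 and 4.31 FPKM in TG1, TG2 and TG3. H2-Q6 (ENSMUSG00000073409, chromosome 17, 35424850 to 35430055, plus strand) was 2.18, 1.45 and 1.33 FPKM in WT and 2.85, 3.77 and 3.90 FPKM in TG mice. In H2-Q4 TG1 lay close to WT1, and in H2-Q6 the lowest TG library was 1.31 times the highest WT library. H2-Q7 (ENSMUSG00000060550, chromosome 17, 35439155 to 35443773, plus strand) was the lowest heavy chain, with 0.672, 0.450 and 0.438 FPKM in WT1, WT2 and WT3 against 0.711, 1.69 and 1.44 FPKM in TG1, TG2 and TG3, on 31 to 53 and 48 to 129 reads. Here TG1 was again just above WT1, by 1.06 times. The log2 fold changes were close to one another, 1.05 for H2-Q4 (SE 0.264, unadjusted p = 0.00488), 1.06 for H2-Q6 (SE 0.209, unadjusted p = 0.00132) and 1.10 for H2-Q7 (SE 0.331, unadjusted p = 0.0122). H2-Q6 had the smallest adjusted p of all members, 0.768 in limma, and was rank 36 of all genes by p.

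Sequence shared between these genes limits how well reads can be assigned to each. Of the 50-base stretches of H2-Q6 transcripts 35.0% also occurred in another gene, with 13.95% shared with H2-Q7 and 12.33% with H2-Q4, and the shares for H2-Q4 and H2-Q7 with any other gene were 36.4% and 26.5%. For the classical genes they were 9.63% (H2-K1) and 12.8% (H2-D1), for H2-T23 14.5%, for H2-M3 0.58%, for Nlrc5 0.34% and for B2m 0.0%. The split of reads among the 3 Qa genes is therefore uncertain, whereas their summed reads were 279, 145 and 170 in WT1, WT2 and WT3 against 279, 515 and 460 in TG1, TG2 and TG3. On the sum of reads TG1 equalled WT1, before correction for depth, and TG2 and TG3 stayed above all WT libraries.

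The other heavy chains are conserved class Ib molecules, and their groups overlapped. H2-T23, the heavy chain of Qa-1 and a ligand of the CD94/NKG2A receptor (ENSMUSG00000067212, chromosome 17, 36029773 to 36032855, minus strand), was 4.92, 2.91 and 4.20 FPKM in WT1, WT2 and WT3 against 3.83, 7.88 and 6.19 FPKM in TG1, TG2 and TG3. H2-M3, which presents formylated peptides (ENSMUSG00000016206, chromosome 17, 37270220 to 37274484, plus strand), was 1.28, 0.861 and 1.78 FPKM in WT and 1.27, 2.41 and 2.46 FPKM in TG mice. In both, TG2 and TG3 were above every WT library and TG1 was below at least 1 of them. H2-T22, a ligand of some gamma delta T cell receptors (ENSMUSG00000056116, chromosome 17, 36037128 to 36042747, minus strand), had the flattest profile, with 4.44, 4.39 and 3.88 FPKM in WT1, WT2 and WT3 against 4.20, 5.23 and 5.66 FPKM in TG1, TG2 and TG3. The log2 fold changes were 0.53 for H2-T23 (SE 0.285, 95% interval -0.14 to 1.20, unadjusted p = 0.102), 0.61 for H2-M3 (SE 0.324, 95% interval -0.15 to 1.37, unadjusted p = 0.101) and 0.23 for H2-T22 (SE 0.129, 95% interval -0.07 to 0.54, unadjusted p = 0.110). These intervals include 0 as well as differences of the size seen in H2-K1 for H2-T23 and H2-M3, but not for H2-T22. H2-T22 shared 53.5% of its stretches with other genes, among them H2-T10 and the overlapping A930015D03Rik, and its value is uncertain for this reason.

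B2m, the light chain needed for class I molecules to fold and reach the surface (ENSMUSG00000060802, chromosome 2, 122147686 to 122153083, plus strand), was the most abundant member, at 87.0, 65.3 and 79.4 FPKM in WT1, WT2 and WT3 against 67.9, 181 and 132 FPKM in TG1, TG2 and TG3. TG2 and TG3 lay above every WT library, and TG1 lay below WT1 and WT3. The means were 77.2 ± 11.03 and 127 ± 56.8 FPKM (SD, n = 3), with a log2 fold change of 0.62 (SE 0.328, 95% interval -0.15 to 1.38, unadjusted p = 0.101, adjusted p = 0.789 in limma). The heavy chains together summed to 58.1, 41.8 and 46.7 FPKM in WT1, WT2 and WT3 against 60.4, 131 and 102 FPKM in TG1, TG2 and TG3, so B2m was 1.499, 1.56 and 1.70 times the heavy chains in the WT libraries and 1.12, 1.38 and 1.29 times in the TG libraries. This ratio, chosen after the values were seen and not tested, was lower in every TG library than in every WT library. H2-K1 and H2-D1 supplied 71.4% to 72.2% of the summed heavy-chain FPKM in WT mice and 73.2%, 80.0% and 76.5% in TG1, TG2 and TG3.

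The deviation of each library from the WT mean, taken as the median over members on the log2 scale, was 0.27, -0.19 and -0.11 in WT1, WT2 and WT3 against 0.35, 1.30 and 1.09 in TG1, TG2 and TG3. This median was highest in TG2, next in TG3, and in TG1 near WT1, although H2-Q6, H2-T22 and H2-M3 were higher in TG3 than in TG2. The choroid plexus markers had another order: their median deviation was 3.37 in TG1, 4.95 in TG2 and -0.07 in TG3. In TG1 the members ranged from -0.18 (B2m) to 1.35 (Nlrc5) on this scale. The part of choroid plexus tissue in the class I values was not tested. Nlrc5 had yet another pattern, with deviations of 1.35, 1.57 and 1.34 in TG1, TG2 and TG3.

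**Figure D3:**
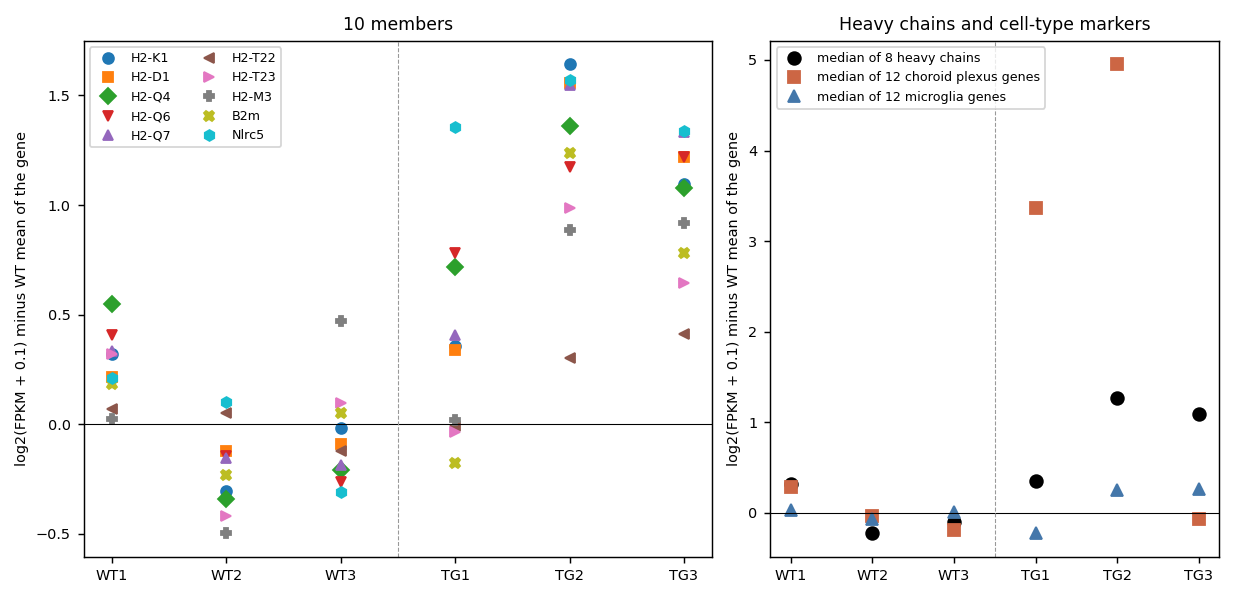
Left, deviation of each member from its WT mean in each library (y axis, log2 units; 0 is the WT mean); right, the median deviation of the 8 heavy chains, of 12 choroid plexus markers and of 12 microglia markers in the same libraries. The heavy chains were at 0.35, 1.27 and 1.09 in TG1, TG2 and TG3 and the choroid plexus markers at 3.37, 4.95 and -0.07.

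Without TG1, all 10 members were higher at an unadjusted p under 0.05, where 2.51% of all genes tested in that fit were. B2m then had a log2 fold change of 1.01 (unadjusted p = 0.0013), H2-T23 of 0.82 (unadjusted p = 0.0137), H2-M3 of 0.90 (unadjusted p = 0.0211) and H2-T22 of 0.36 (unadjusted p = 0.0168), and the smallest adjusted p of a member was 0.0871, for H2-D1 at a log2 fold change of 1.39 (limma). Without TG2, the library with the highest class I level, the same fit gave 0.73 for H2-K1, 0.78 for H2-D1, 0.30 for B2m, 0.31 for H2-T23 and 1.35 for Nlrc5, and 6 members were higher at that threshold, against 2.17% of all genes. B2m and H2-T23 thus moved by over 1.5 times with either of these libraries, and H2-T22 with TG1. The overlapping heavy chains also moved by over 1.5 times with other libraries: without WT2 the log2 fold change was 0.36 for H2-M3 and 0.32 for H2-T23, and without TG3 it was 0.15 for H2-T22. Without WT3, H2-M3 had 0.84 (unadjusted p = 0.0432). With TG3 as the only TG library, assumed to vary like the WT libraries and chosen after seeing the data, log2 fold changes were 1.10 for H2-K1, 1.22 for H2-D1, 1.22 for H2-Q6, 1.33 for H2-Q7, 0.41 for H2-T22, 0.78 for B2m and 1.34 for Nlrc5. These 7 of the 10 members were higher at an unadjusted p under 0.05, where 1.99% of all genes were. The other 3 had 1.08 (H2-Q4, unadjusted p = 0.0718), 0.65 (H2-T23, unadjusted p = 0.135) and 0.92 (H2-M3, unadjusted p = 0.113) in that fit. With a score of the choroid plexus markers as a covariate in limma, 2 members (H2-Q6 and Nlrc5) remained at that threshold, against 1.58% of all genes. Their log2 fold changes were 1.08 (unadjusted p = 0.0116) and 1.28 (unadjusted p = 0.0309), while H2-K1 had 0.82 (unadjusted p = 0.108) and H2-D1 0.95 (unadjusted p = 0.059). H2-Q7 had 1.05 with the score and 1.10 without it. The standard error of each member was larger with the score, 0.439 against 0.312 for H2-K1 and 0.485 against 0.331 for H2-Q7. Only TG1 and TG2 were high in these markers, so the score was partly confounded with genotype.

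**Figure D4:**
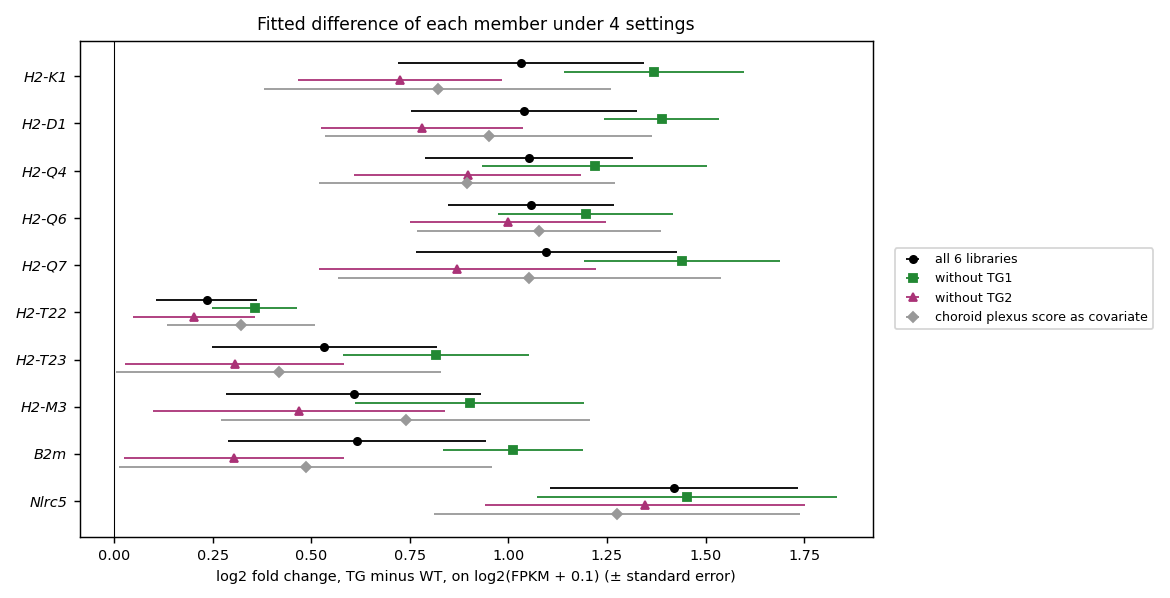
Log2 fold change of each member, TG minus WT, on log2(FPKM + 0.1) (x axis; bars are ± 1 standard error) with all 6 libraries, without TG1, without TG2 and with the choroid plexus score as a covariate. Every value is above 0, the values without TG1 are the highest of the 4 for each member, and H2-T22 is the lowest member in the fit with all 6 libraries (0.23).

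Genes that supply class I with peptides were next compared (13 tested, median log2 fold change 0.20). At an unadjusted p under 0.05 in limma, 4 were higher, beside 3.13% of all genes tested, and 0 were lower. The 4 were Psmb8 and Psmb9, catalytic subunits of the immunoproteasome, Tap2, a subunit of the peptide transporter, and Tapbp, which encodes tapasin and bridges the transporter and class I. Psmb8 was 1.15, 0.950 and 0.996 FPKM in WT1, WT2 and WT3 against 1.59, 2.32 and 1.90 FPKM in TG1, TG2 and TG3. Psmb9 was 0.532, 0.474 and 0.379 FPKM in WT and 0.794, 0.945 and 1.18 FPKM in TG mice. In both, TG1 was the lowest TG library and still above every WT library, with log2 fold changes of 0.84 for Psmb8 (unadjusted p = 0.00179) and 0.93 for Psmb9 (unadjusted p = 0.0042). Tap2 differed by 0.36 (unadjusted p = 0.01) and Tapbp by 0.34 (unadjusted p = 0.0209). None of the 4 passed the adjustment in limma, at adjusted p = 0.786. Psmb10, the remaining catalytic immunoproteasome subunit, was 16.4 to 23.8 FPKM in WT and 16.6 to 18.9 FPKM in TG mice. Tap1, the partner of Tap2, was 1.03 to 1.21 FPKM in WT and 1.03 to 1.99 FPKM in TG mice. The most abundant gene of the list was the chaperone Calr, at 76.6 to 86.1 FPKM in WT and 78.1 to 89.6 FPKM in TG mice.

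The other class I and class I-like genes numbered 12 tested of 20 in the table, with 2 higher, 0 lower and a median log2 fold change of 0.32. The share of all genes tested that were higher at the same unadjusted threshold was 3.13%. H2-Q5 was 0.374, 0.389 and 0.235 FPKM in WT1, WT2 and WT3 against 0.477, 0.596 and 0.661 FPKM in TG1, TG2 and TG3, on 7 to 19 reads (log2 fold change 0.66, unadjusted p = 0.042). Hfe, a class I-like regulator of iron uptake, was 2.10, 1.65 and 1.67 FPKM in WT and 2.44, 3.87 and 2.23 FPKM in TG mice (log2 fold change 0.59, unadjusted p = 0.0287). Both had all TG libraries above all WT libraries, which held for 6.35% of all genes tested. Since both were picked by their p, which favours such a separation, this adds no further support. Fcgrt, the neonatal Fc receptor and the most abundant of this list, was 7.19 to 8.74 FPKM in WT and 8.44 to 9.35 FPKM in TG mice. H2-M1, H2-M2, H2-M9, H2-M10.1 and Cd1d2 were listed at 0 in every library.

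Of the 15 factors that act at class I promoters, among them the RFX subunits, interferon regulatory factors, STATs and NF-kappa B, none was higher or lower at an unadjusted p under 0.05 (limma, also none at an adjusted p), and their median log2 fold change was 0.08. Stat2, with the smallest p of them, was 2.73 to 3.82 FPKM in WT and 3.83 to 4.02 FPKM in TG mice, and Rfxap, the most abundant, was 14.2 to 17.9 and 15.3 to 15.8 FPKM. The same counts, 0 higher and 0 lower, were found for the 7 interferon receptor and kinase genes (median -0.02), of which Ifnar2 had the smallest p at a log2 fold change of 0.25 and Jak1 was the most abundant. Of 10 genes of class I receptors 3 were above the filter and 0 passed, with Pirb the most abundant of them. Cd8a was 0.0511 to 0.119 FPKM in WT and 0.183 to 0.353 FPKM in TG mice, on only 3 to 8 and 11 to 23 reads. Cd8b1 overlapped between the groups, at 0.0360 to 0.292 FPKM in WT and 0.0426 to 0.263 FPKM in TG mice.

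**Figure D5:**
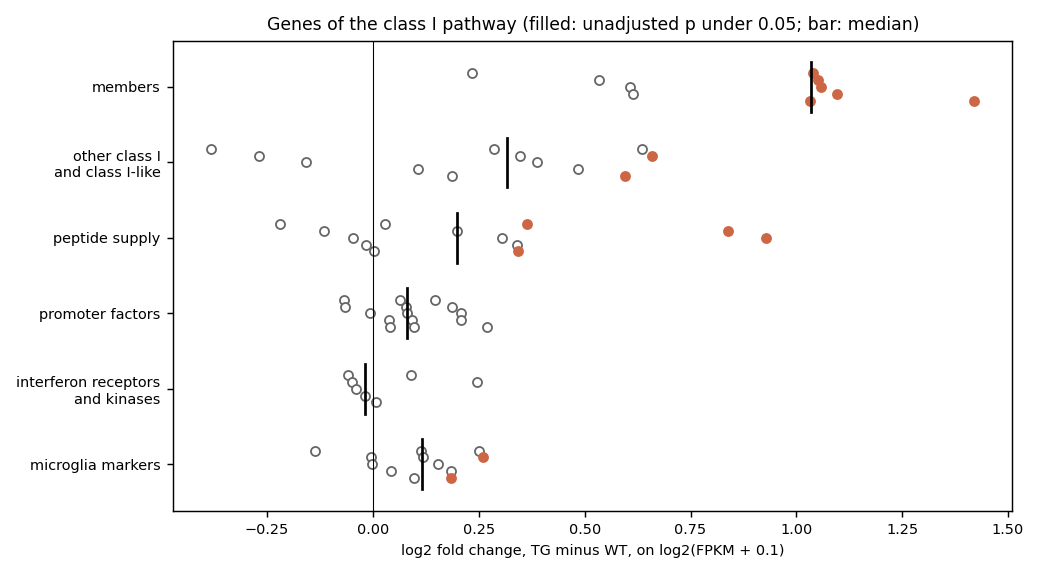
Log2 fold change of every gene tested in 5 class I lists and the microglia list (x axis, TG minus WT on log2(FPKM + 0.1)), 1 row per list; each point is a gene, filled where the unadjusted p was under 0.05, and the vertical tick is the median. The members have a median of 1.04, peptide supply 0.20, other class I genes 0.32, promoter factors 0.08 and interferon receptors -0.02.

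Markers of cells that carry class I were counted in the same libraries, beside the 3.13% of all genes tested that were higher at an unadjusted p under 0.05 (limma). Of 12 microglia markers 2 were higher, Csf1r and Trem2, with log2 fold changes of 0.19 (unadjusted p = 0.0446) and 0.26 (unadjusted p = 0.0274), and the list summed to 200.9 to 227 FPKM in WT mice, 185 FPKM in TG1, 256 FPKM in TG2 and 246 FPKM in TG3, with no marker at 0. Their sum was thus highest in the same 2 libraries as class I, at a smaller ratio. Of 6 markers of border macrophages none passed, with sums of 2.23 to 3.37 FPKM in WT and 3.65 to 4.03 FPKM in TG mice. Of 11 T and natural killer cell markers 6 were tested and 1 was higher, Trbc2 (log2 fold change 1.63, unadjusted p = 0.0063, on 2 to 26 reads), with sums of 1.41 to 2.23 FPKM in WT and 1.97, 3.91 and 4.20 FPKM in TG1, TG2 and TG3 and Ncr1 at 0. Log2 fold changes were positive in 5 of the 6. The exception was Trac, the most abundant of the list, at 0.81, 0.60 and 1.43 FPKM in WT1, WT2 and WT3. It was 0.34, 1.31 and 0.83 FPKM in TG1, TG2 and TG3 (log2 fold change -0.25). B and dendritic cell markers (4 of 8 tested, 0 higher) summed to 1.48 to 1.82 FPKM in WT and 1.93 to 2.79 FPKM in TG mice.

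Endothelial markers, from cells known for class I expression, summed to 119 to 145 FPKM in WT and 127 to 129 FPKM in TG mice, with Flt1 as the 1 of 8 that was higher. The sums of neutrophil and blood markers (0 of 7 higher) were 145 to 215 FPKM in WT and 156 to 175 FPKM in TG mice, and those of meningeal fibroblast markers (0 of 8 higher) were 15.9 to 37.0 and 20.4 to 27.0 FPKM. Astrocyte markers, 0 of 6 higher, summed to 449 to 509 FPKM in WT and 448 to 476 FPKM in TG mice. Of the oligodendrocyte and neuron markers, 0 were higher and 1 each was lower (Opalin and Calb1), beside 2.78% of all genes tested that were lower. Positive log2 fold changes were found in 0 of the 6 oligodendrocyte markers (median -0.32) and in 5 of the 10 neuron markers (median -0.002). Of the choroid plexus markers 6 of 12 were higher, with Ttr at 73.0, 49.8 and 66.6 FPKM in WT1, WT2 and WT3 against 1168, 3705 and 57.7 FPKM in TG1, TG2 and TG3. The part of these cell types in the class I values was not tested.

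The 13317 other genes with a mean of at least 1 FPKM were ranked by the Pearson correlation of their log2 values with the mean of the members over the 6 libraries, as a description without a test. The nearest were Alkbh1 (r = 0.991), Il10ra (0.986), Rita1 (0.983), Itgb2 (0.982), Mettl16 (0.98) and the class II gene H2-Eb1 (0.978). Their sizes differed widely: H2-Eb1 was 3.88, 1.10 and 1.31 FPKM in WT1, WT2 and WT3 against 3.84, 15.1 and 7.997 FPKM in TG1, TG2 and TG3, whereas Alkbh1 was 1.90 to 2.03 FPKM in WT and 2.01 to 2.22 FPKM in TG mice. For B2m alone the nearest were Ifnar2 (0.994), Isg15 (0.988) and Creld2 (0.987), with Isg15, an interferon-stimulated gene, at 1.43, 1.23 and 1.48 FPKM in WT1, WT2 and WT3 against 1.34, 2.66 and 1.98 FPKM in TG1, TG2 and TG3. Among the members themselves r was highest between H2-D1 and H2-Q7 (0.994) and lowest between H2-M3 and Nlrc5 (0.519).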

How the data were processed

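RNA-seq of mouse hippocampus, 3 WT and 3 TG libraries, was used. The authors counted reads per gene with HTSeq and deposited FPKM, with 1 column per library. The aligner was not given in the sources used here, nor was strand or the rule for reads that match several genes. Processing notes of the submitters name GRCm38 and mm10. Kits differ between the sources, Trizol and NEBNext in the methods, RNeasy and SMARTer in the labels.

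Multiplied by gene length, the FPKM came in whole steps in every library (tolerance 0.05 reads), which gave the reads per gene. Counting error is only a lower limit of the error of these values. The reads had no molecular identifiers, and shared sequence makes the assignment of some reads uncertain. Genes with a mean of at least 0.1 FPKM (20952 of 54532) were tested with limma 3.58.1 (R 4.3.3) on log2(FPKM + 0.1), which understates changes of low genes, with a variance trend, no block and Benjamini-Hochberg adjustment. Intervals are 95% intervals of limma. The test was tried on simulated data with the same dispersion for all genes and no library of differing composition. That trial does not show how the test behaves with the spread of these TG libraries. No source says that the libraries of a group are separate animals, so p-values measure the spread between these libraries.

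The genes named are the members, the nearest genes by correlation and those past the unadjusted threshold. In the class I lists the most abundant gene and that of smallest p are also named. In the cell-type lists mainly markers past that threshold are named, and of the choroid plexus markers only Ttr. Psmb10, Tap1, Cd8b1, Trac, H2-Eb1, Isg15, Xist and Ddx3y were named after their values were seen. The members and lists were chosen with earlier results of these data known. Alternatives changed the pseudocount, filter, scaling, variance trend, biotype, block, choroid plexus covariate and libraries, and used limma-voom on the recovered reads. Shared sequence was computed over 50-base stretches of GENCODE transcripts (GRCm38), and promoters are RefSeq windows of 250 bases before to 50 after each start. Scripts ran in Python 3.11.15 with numpy 2.4.6, pandas 2.3.3 and matplotlib 3.10.9.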

Additional observations from a re-analysis of the deposited data

How the results depend on the processing

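No member changed direction in any of the 178 alternative values, of which 165 stayed on the same side of an unadjusted p of 0.05, 8 passed it newly and 5 lost it. No member reached an adjusted p of 0.05 in limma or limma-voom. Of 10 members, 2 were higher at an unadjusted p with the choroid plexus covariate, 6 to 10 when 1 library was left out (10 without TG1) and 7 with limma-voom. Over all genes, 1 was higher and 1 lower at an adjusted p. Both counts were 0 with a pseudocount of 0.01 or 1, no filter, limma-voom, protein-coding genes alone, the replicate block, the choroid plexus covariate, and TG3 as the only TG library; with a filter at 1 FPKM they were 0 and 1, and without the variance trend 6 and 3. Leaving out 1 library gave 0 to 11 higher genes (11 without TG1) and 0 to 1 lower. At an unadjusted p, 656 genes were higher and 582 lower; 332 were higher with the covariate, 417 with TG3 alone and 440 to 769 with 1 library left out. Median centring gave 473 higher and 773 lower and a median of all genes of -0.04, and limma-voom 813 and 490. The causes were not tested.

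Same-numbered libraries had correlations of their deviations of 0.0125, 0.0434 and 0.00314, and libraries of different number -0.0274 to 0.0159. With 3 libraries per group these values cannot show whether the numbers pair the mice. With the replicate block 6 members and 634 genes were higher at an unadjusted p, and 0 genes at an adjusted p. Depth limits Nlrc5, H2-M3 and H2-Q7 most, with 10 to 21, 20 to 48 and 31 to 53 reads in WT libraries.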
